A study of Mus musculus with 18 samples.

Results

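A set of 10 genes, namely the FOS family (Fos, Fosb, Fosl1, Fosl2), the JUN family (Jun, Junb, Jund), Egr1 and the small MAF genes Maff and Mafk, were followed in mouse gastrocnemius, a calf muscle, 24 h after tunicamycin. They were chosen by name, and each was measured by the probesets whose annotation carries its symbol alone, averaged where a gene had more than 1. This gave 9 of the 10 genes, out of 22180 genes measured in the series. Fosl1 lay on 1 probeset that it shares with Ccdc85b, so no value is given for it. Muscles came from 9 wild-type (WT) mice, labelled female and of a mixed C57Bl6/J-SV129 strain, whereas the animal section of the study describes male C57BL/6J mice, and the labels give no age. In each mouse, 1 gastrocnemius was injected with 30 µg of tunicamycin in 30 µL and the gastrocnemius of the other leg with saline, which gave 9 tunicamycin and 9 saline legs with 1 MoGene-2_0-st Affymetrix array each. Tunicamycin stops the step that starts N-linked glycans, so that proteins misfold in the endoplasmic reticulum (ER), a state called ER stress. Both legs belong to the same animal, so a change that reached both legs would not be seen, and a muscle untouched by any injection was not part of the design.

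FOS and JUN proteins are basic leucine zipper (bZIP) transcription factors that pair to form AP-1, a dimer that binds the motif TGACTCA. FOS proteins need a JUN partner to bind DNA, whereas JUN proteins can also pair with each other. Many of these genes are immediate-early genes, which are transcribed within minutes of a growth factor, stretch, injury or stress through kinases and factors already present in the cell. EGR1 is a zinc finger factor of the same early class. MAFF and MAFK are small MAF proteins, bZIP factors that lack an activation domain and serve as partners of NRF2 or BACH1 on antioxidant response elements.

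The sequences upstream of 4 genes are shown because the tests below turn on them. Fosb and Mafk were the genes that rose, and Jun and Jund were a pair whose changes differed. Each run is the 250 bases before the annotated start of the gene in RefSeq (build GRCm38.p6), written 5′ to 3′ along the strand of the gene, with each TGACG in capitals. TGACG is the half-site of the cyclic AMP response element (CRE), a motif bound by CREB and ATF factors.
Fosb: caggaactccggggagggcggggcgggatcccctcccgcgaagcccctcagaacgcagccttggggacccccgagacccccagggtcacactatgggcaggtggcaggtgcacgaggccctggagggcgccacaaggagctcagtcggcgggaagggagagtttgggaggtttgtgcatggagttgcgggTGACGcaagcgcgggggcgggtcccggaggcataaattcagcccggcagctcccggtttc
Mafk: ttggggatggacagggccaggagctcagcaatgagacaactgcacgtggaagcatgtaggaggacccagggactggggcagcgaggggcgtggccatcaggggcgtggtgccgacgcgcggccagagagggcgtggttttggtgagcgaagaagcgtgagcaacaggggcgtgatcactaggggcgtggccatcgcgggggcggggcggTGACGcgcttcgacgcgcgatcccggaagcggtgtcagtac
Jun: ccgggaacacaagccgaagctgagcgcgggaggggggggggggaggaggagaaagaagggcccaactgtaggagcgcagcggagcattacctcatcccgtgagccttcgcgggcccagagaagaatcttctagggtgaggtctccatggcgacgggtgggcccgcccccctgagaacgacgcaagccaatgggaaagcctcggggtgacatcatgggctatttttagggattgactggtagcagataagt
Jund: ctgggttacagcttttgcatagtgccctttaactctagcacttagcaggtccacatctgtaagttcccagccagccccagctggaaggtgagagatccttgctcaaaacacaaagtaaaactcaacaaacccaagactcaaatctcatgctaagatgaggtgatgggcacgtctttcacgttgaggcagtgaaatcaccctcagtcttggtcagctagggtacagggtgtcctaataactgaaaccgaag
They lie at chr7:19310046-19310295 on the minus strand, chr5:139791286-139791535 on the plus strand, chr4:95052223-95052472 on the minus strand and chr8:70697489-70697738 on the plus strand. The RefSeq record of Fosb extends 73 bases beyond the start used here, so the last 73 bases of its run lie inside that record. TGACG, sought on both strands over the 300 bases from 250 before to 50 after the start, began 60 bases before the start in Fosb and 41 bases before it in Mafk, and was in neither Jun nor Jund. Fos held it at 129 and 66 bases before its start, Junb at 106 bases, and Maff in 2 of its 3 listed promoters. So 5 of the 8 genes whose promoters were searched had it, or 6 of their 10 promoters, beside 20.8% of all 32851 promoters. No promoter of Egr1 or Fosl1 was searched, so the counts here and below do not cover these genes. The full CRE, TGACGTCA, which contains the half-site, was in 1 Maff promoter and in 1.79% of all promoters. The AP-1 motif TGACTCA, sought without variants, was in none of the 8 genes and in 5.20% of all promoters. The motif GCGTGGGCG, bound by EGR factors, was in 1 Maff promoter and in 0.612% of all promoters. The CArG box, bound by serum response factor, was in none of the 8 and in 1.63% of all promoters. Of the motifs linked to ER stress, TGATGCAA (0.895% of all promoters) and the ER stress element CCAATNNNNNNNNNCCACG (0.119%) were in none of the 8. These matches describe letters in a window, and the motifs were picked with the expression values known.

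All values below are log2 signals of the arrays, and changes are log2 tunicamycin minus saline within a mouse, each with its standard error (SE) as limma moderates it. A gene is said to have risen or fallen where its Benjamini-Hochberg adjusted p, over all 22180 genes, was under 0.05. Signals of different probesets were not set against each other. Array medians ran from 4.99 to 5.07. As a check of the injection, all 7 of 7 ER stress genes rose, and Hspa5, which encodes the ER chaperone BiP, was between 7.96 and 8.42 in saline legs and between 8.90 and 10.001 in tunicamycin legs. Muscle fibre markers averaged 11.9 to 12.0 in both groups and 0 of 10 were called. Mice 1 and 9 stood apart from the others. They had the smallest mean changes of the 7 ER stress genes, 0.53 and 0.52 respectively, while the remaining 7 mice had 0.98 to 1.40. Both legs of mouse 9 also had an Xist signal of 4.79 and 4.90, where the other 16 arrays had 9.22 to 9.52, while 3 Y-linked genes (Eif2s3y, Kdm5d and Uty) lay between 2.51 and 3.53 in all 18 arrays. High Xist with low Y-linked signals goes with the female label in the other mice, whereas mouse 9 was low in both. Results are therefore also given without mouse 9 and without mice 1 and 9.

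At 24 h the changes of these genes were small. Fosb and Mafk rose and none of the 9 fell, that is 2 of 9 genes, where 4.72% of all genes rose and 6.15% fell. Of the 9 changes, 7 lay above 0 and 2, those of Jun and Maff, lay below it, with a median of 0.16, beside 52.7% above 0 and a median of 0.01 over all genes. The changes ran from 0.885-fold for Maff to 1.30-fold for Egr1. In none of the 9 genes were the saline and tunicamycin legs fully separated, and such a separation was seen in 0.564% of all genes. At an unadjusted p under 0.05, 5689 of all 22180 genes passed, and 7 of the 9 genes did, with Jun and Maff among these 7. Centring the arrays on their medians turned the split of all calls from 1047 rises and 1363 falls to 802 rises and 1785 falls, and left Fosb as the only gene of the 9 to rise.

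**Figure D1:**
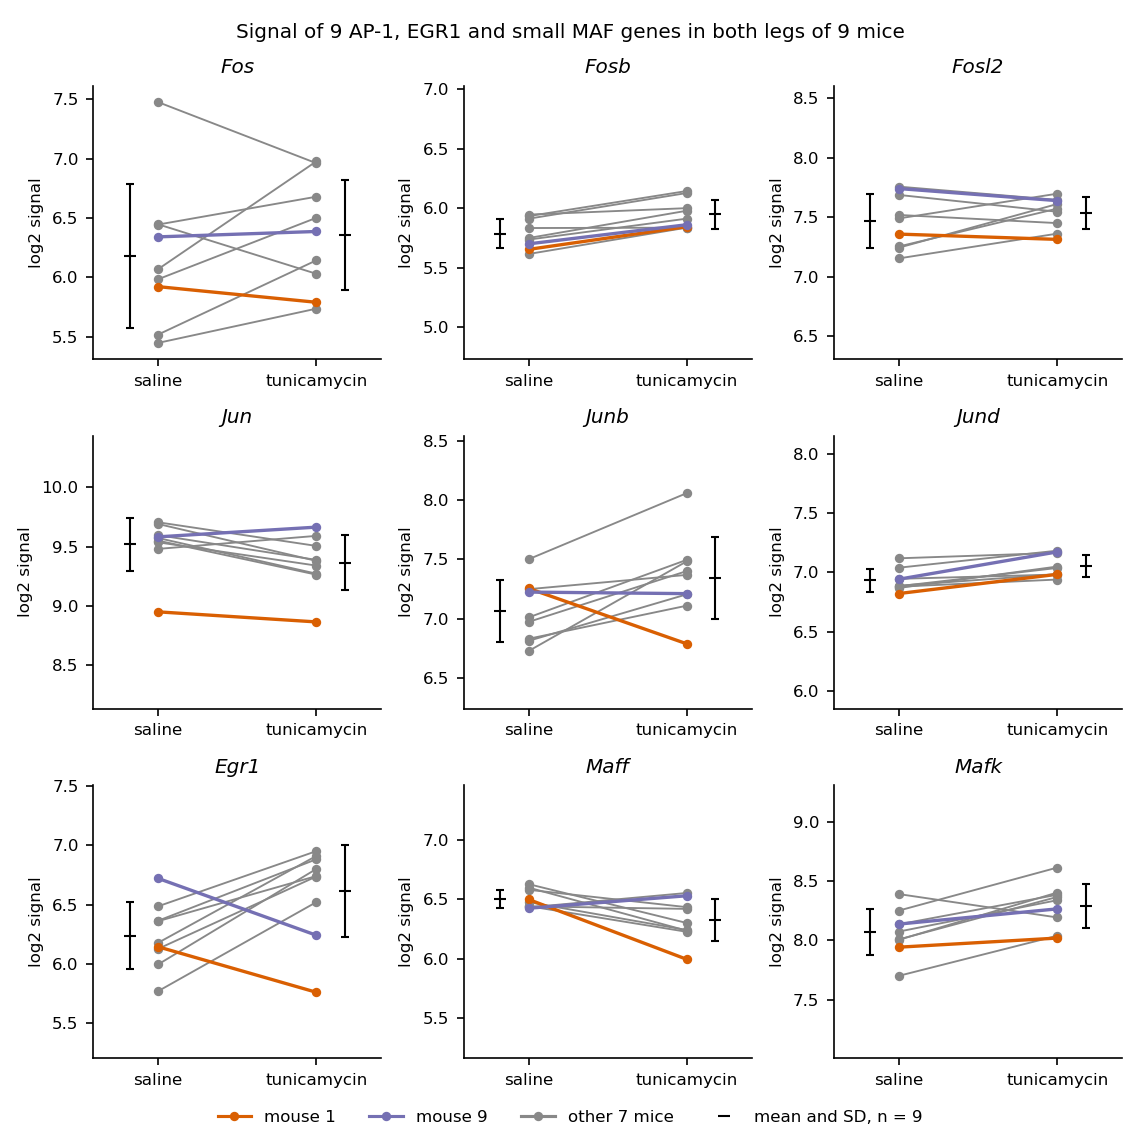
Log2 signal (y axis) of the 9 measured genes in the saline and the tunicamycin leg (x axis), where each line joins the legs of 1 mouse, black bars are mean and SD of 9 legs, and every panel spans the same height. Fosb and Jund were higher in the tunicamycin leg of all 9 mice, whereas Egr1 was higher by 0.38 to 0.80 in 7 mice and lower by 0.38 and 0.48 in mice 1 and 9.

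Within the FOS family only Fosb passed the test. FOSB is a FOS protein that gathers in cells under repeated stimulation, through its short form ΔFOSB. Its signal in saline legs was 5.61 at the lowest, 5.75 at the median and 5.95 at the highest, and in tunicamycin legs 5.84, 5.91 and 6.14 (mean 5.79 ± 0.12 and 5.95 ± 0.12, SD, n = 9 each). The groups overlapped, but the tunicamycin leg was the higher one in all 9 mice, by 0.00 and 0.05 in mice 2 and 4 and by 0.16 to 0.23 in the other 7. Such a shared direction upward was seen in 1.91% of all genes. The change was 0.16 ± 0.04 (1.12-fold, limma adjusted p = 0.0239). The spread of this change between mice was narrow, with an SD of 0.080, and 3.65% of all genes had a narrower one. Leaving out mouse 9 gave 0.16 ± 0.04 (adjusted p = 0.0296), and leaving out mouse 1 as well gave 0.16 ± 0.05 (adjusted p = 0.0482). Leaving out mouse 3, 5, 6 or 7 gave changes of 0.15 to 0.16 and adjusted p-values of 0.0607, 0.0606, 0.0596 and 0.0602, so the call was lost there while the size was not. It was also lost in a fit without the mouse as a block (adjusted p = 0.0933), as was that of Mafk (adjusted p = 0.110).

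Fos, the first member of the family to be described and a standard marker of recent stimulation, had the widest spread of signal of the 9 genes. Saline legs ran from 5.45 through a median of 6.07 to 7.48, and tunicamycin legs from 5.74 through 6.39 to 6.98. The groups overlapped, and the saline leg of mouse 4 was the highest of all 18 legs. The within-mouse change ran from -0.51 in mouse 4 to 0.91 in mouse 8, with 6 mice above 0 and 3 below. Its SD of 0.48 exceeded that of 98.4% of all genes, and the mean change was 0.17 ± 0.13 (adjusted p = 0.442). Fosl2, which encodes FRA-2, lay between 7.15 and 7.76 in saline legs (median 7.49) and between 7.31 and 7.70 in tunicamycin legs (median 7.57). Its change was 0.07 ± 0.06 (adjusted p = 0.535), above 0 in 4 mice and below 0 in 5. The groups of Fosl2 overlapped in full, and neither gene passed the test with any 1 mouse left out. The Fos change moved to 0.08 ± 0.12 without mouse 8 and that of Fosl2 to 0.04 ± 0.06 without mouse 2 and 0.03 ± 0.06 without mouse 8, and Fosl2 was at 0.11 ± 0.07 with mice 1 and 9 both left out (adjusted p = 0.363).

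**Figure D2:**
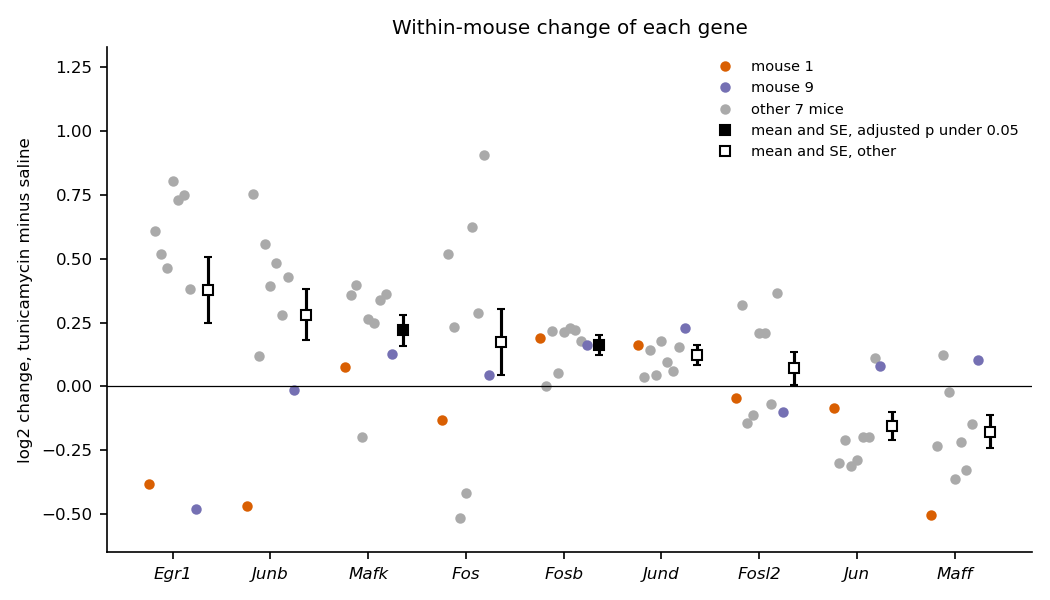
Log2 change, tunicamycin minus saline, on the y axis for each gene on the x axis, with 1 point per mouse in the order of mouse numbers and a square for the mean with its limma SE, filled where the adjusted p was under 0.05. The filled squares are Mafk (0.22) and Fosb (0.16), and the points of Fosb and Jund are the tightest.

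None of the 3 JUN genes passed the test, with a mean change below 0 for Jun and above 0 for Junb and Jund. Jun encodes c-JUN, the partner that most AP-1 dimers share and a target of JNK, the kinase that is also turned on by the ER stress sensor IRE1. Jun ran from 8.95 through a median of 9.57 to 9.70 in saline legs and from 8.87 through 9.38 to 9.66 in tunicamycin legs. Both legs of mouse 1 lay below all legs of the other mice (8.95 and 8.87, against 9.26 or more), and the groups overlapped. The tunicamycin leg was lower in 7 mice, by 0.08 to 0.31, and higher in mice 8 and 9, by 0.11 and 0.08. The mean change of -0.15 ± 0.05 missed the threshold (adjusted p = 0.0858). It passed without mouse 8 (-0.19 ± 0.05, adjusted p = 0.0433) and without mouse 9 (-0.18 ± 0.05, adjusted p = 0.0397). Leaving out both mouse 1 and mouse 9 gave -0.20 ± 0.06 (adjusted p = 0.0389).

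Junb encodes a JUN protein that is a weaker activator than c-JUN on many promoters and that helps to maintain muscle fibre size in mice. Its signal was 6.73, 7.01 and 7.50 (lowest, median and highest) in saline legs and 6.79, 7.37 and 8.06 in tunicamycin legs. The tunicamycin leg was higher in mice 2 to 8, by 0.12 to 0.76, lower by 0.47 in mouse 1 and level in mouse 9 (-0.01). The mean change of 0.28 ± 0.10 missed the threshold (1.22-fold, adjusted p = 0.0934), but it reached 0.38 ± 0.08 without mouse 1 (adjusted p = 0.00885). Leaving out mouse 9 too gave 0.43 ± 0.07 (adjusted p = 0.00184). Without mouse 9 alone it was 0.32 ± 0.11 (adjusted p = 0.0721). These mice were left out with their Junb values known, so the values without them describe the other mice.

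Jund encodes the JUN protein that most cells make all the time. It was measured by 2 probesets, whose changes were 0.14 ± 0.04 and 0.10 ± 0.06, so both lay above 0. Averaged over the probesets, saline legs ran from 6.82 through 6.89 to 7.12 and tunicamycin legs from 6.94 through 7.04 to 7.18, and the groups overlapped. Jund was higher in the tunicamycin leg of all 9 mice, by 0.04 to 0.23. The mean change of 0.12 ± 0.04 was just short of the threshold (1.09-fold, adjusted p = 0.0615), and no single mouse left out brought it past. It passed with the brighter probeset alone (0.14 ± 0.04, adjusted p = 0.0408) and after quantile normalization of the arrays again (0.14 ± 0.04, adjusted p = 0.0451). The SD between mice was 0.067, and 1.43% of all genes had a smaller one.

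Egr1 had the largest mean change of the 9, with 7 mice above 0 and 2 below. EGR1 binds GC-rich promoters and is itself held in check by the corepressors NAB1 and NAB2. Saline legs ran from 5.77 through a median of 6.18 to 6.72, and tunicamycin legs from 5.76 through 6.74 to 6.95. The highest saline leg was that of mouse 9 and the lowest tunicamycin leg that of mouse 1. In mice 2 to 8 the changes were 0.61, 0.52, 0.46, 0.80, 0.73, 0.75 and 0.38, whereas they were -0.38 in mouse 1 and -0.48 in mouse 9. Thus 7 of 9 mice were higher, by 0.38 or more, and 2 were lower by a like amount. Over all 9 mice the change was 0.38 ± 0.13 (1.30-fold, adjusted p = 0.0816), and it did not pass. It was 0.47 ± 0.12 without mouse 1 (adjusted p = 0.0218), 0.48 ± 0.11 without mouse 9 (adjusted p = 0.0130) and 0.61 ± 0.06 without both (adjusted p = 8.95e-05). Mice 1 and 9 were left out with their values for these genes known, so the last value describes the other 7 mice. Without these mice, Fosb, Junb, Egr1 and Mafk rose and Jun fell, beside 7.05% of all genes that rose and 7.42% that fell.

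Some markers of cells other than muscle fibres also differed between the legs. Of 11 macrophage and monocyte markers, 4 rose (Fcgr1, Adgre1, Lyz2, Cd68) and 1 fell (Cd163), and of 10 neutrophil markers 4 rose (Mmp8, Csf3r, S100a8, Retnlg). The mean saline signal of Retnlg (3.49) lay inside the range of the Y-linked genes (2.51 to 3.53), so the size of its change is uncertain. The macrophage list averaged 6.03 to 6.72 in saline legs and 6.28 to 7.15 in tunicamycin legs, and the neutrophil list 4.20 to 4.66 and 4.40 to 5.04. The 21 markers together changed by -0.10 in mouse 1 and -0.24 in mouse 9, and by 0.26 to 0.67 in the other 7, so the mice in which Egr1 was lower in the tunicamycin leg were also those in which these markers were lower. With the mean of these markers in each array as a covariate, the Egr1 change was -0.10 ± 0.09 (adjusted p = 0.656), that of Mafk 0.15 ± 0.09 (adjusted p = 0.476) and that of Fosb 0.17 ± 0.06 (adjusted p = 0.254). Junb changed by 0.005 ± 0.12 in that fit (adjusted p = 0.990), Jun by -0.03 ± 0.07 (adjusted p = 0.874), Fos by 0.11 ± 0.20 and Fosl2 by -0.013 ± 0.09. The changes of Jund (0.16 ± 0.06, adjusted p = 0.239) and Maff (-0.17 ± 0.10, adjusted p = 0.479) did not shrink by over 1.5 times, nor did those of Fosb and Mafk. In that fit 0 of the 9 genes passed. With the covariate 25 of all genes rose and 6 fell, and the markers themselves moved with the injection. In whole muscle, more cells of a type and more RNA per cell cannot be told apart. Among other cells, 2 of 8 fibroblast markers (Col3a1, Col1a2) and 1 of 8 markers of T, B and NK cells (Cd4) rose, 3 of 6 smooth muscle and pericyte markers (Rgs5, Myh11, Tagln) fell, and none of the endothelial (8), satellite cell (6), adipocyte (6), Schwann cell and nerve (4) and red cell (1) markers measured was called. The mean of the 6 adipocyte markers changed by 1.81 in mouse 1 and by -1.30 to 0.34 in the other mice. For these markers the tunicamycin leg of mouse 1 averaged 9.24, against 6.71 to 7.73 in the other tunicamycin legs. The part of all these cell types in the changes of the 9 genes was not tested beyond the covariate.

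**Figure D3:**
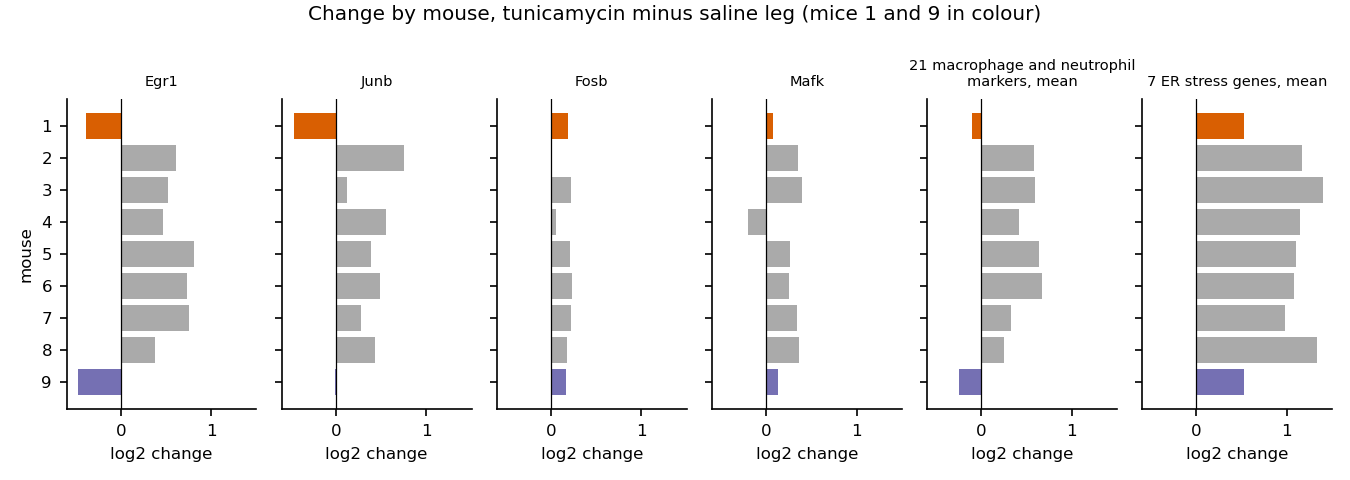
Log2 change, tunicamycin minus saline (x axis), by mouse (y axis) for 4 genes, for the mean of 21 macrophage and neutrophil markers and for the mean of 7 ER stress genes. Mice 1 and 9, in colour, had Egr1 changes of -0.38 and -0.48, marker changes of -0.10 and -0.24 and the 2 smallest ER stress changes (0.53 and 0.52).

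Of the small MAF genes, Mafk rose and Maff did not pass. Mafk ran from 7.70 through a median of 8.07 to 8.39 in saline legs and from 8.02 through 8.34 to 8.61 in tunicamycin legs, with overlap between the groups. The tunicamycin leg was higher in 8 of 9 mice, by 0.08 in mouse 1, 0.13 in mouse 9 and 0.25 to 0.40 in 6 others, and lower by 0.20 in mouse 4, whose saline leg was the highest of its group. The change was 0.22 ± 0.06 (1.16-fold, adjusted p = 0.0362), and 0.23 ± 0.07 without mouse 9 (adjusted p = 0.0378). In a limma fit over all 41345 probesets, the adjusted p of its only probeset was 0.0731, above the threshold, and that of Fosb was 0.0474. Leaving out mouse 1 as well gave 0.25 ± 0.07 (adjusted p = 0.0326). The call was lost without mouse 2, 3, 5, 6, 7 or 8, where the change was 0.20 to 0.22 and the adjusted p was 0.0834, 0.0907, 0.0793, 0.0740, 0.0848 and 0.0728, and after centring on array medians (0.20 ± 0.06, adjusted p = 0.0558). Maff, the stress-inducible small MAF gene of many cell types, ran from 6.43 through 6.48 to 6.63 in saline legs and from 6.00 through 6.30 to 6.55 in tunicamycin legs. The tunicamycin legs were spread more widely (SD 0.18, against 0.079 in saline legs), and the leg of mouse 1 was the lowest. The tunicamycin leg was lower in 7 of 9 mice, by 0.50 in mouse 1, and higher in mice 3 and 9. The change of -0.18 ± 0.07 did not pass (adjusted p = 0.107), also not with any 1 mouse left out.

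Whether members of a family differed in their response was tested directly, on the difference of their within-mouse changes, by an exact permutation test (two-sided) over all ways to flip the signs of the 9 mice. In all, 7 pairs could be formed and p-values were adjusted over them. Jun and Jund differed, with Jun below Jund in 9 of 9 mice by a mean of 0.28 (difference -0.28 ± 0.12, SD, n = 9, exact p = 0.00391, the smallest that 9 mice allow, adjusted p = 0.0273). Maff and Mafk differed as well, with Maff below Mafk in 8 of 9 mice (-0.40 ± 0.29, SD, exact permutation p = 0.0117, adjusted p = 0.0410), mouse 4 being the exception. In both pairs the mean changes of the genes lay on opposite sides of 0, as they did for Jun and Junb, and in neither pair did both genes pass the test on their own. Jun lay below Junb in 7 of 9 mice by a mean that was larger still but far more spread (-0.44 ± 0.46, SD, exact permutation p = 0.0313, adjusted p = 0.0729). Fosb minus Fosl2 (0.09 ± 0.23), Fos minus Fosl2 (0.10 ± 0.40), Fos minus Fosb (0.01 ± 0.47) and Junb minus Jund (0.16 ± 0.41) were all smaller than their SD, with adjusted p from 0.372 to 0.945 in the exact permutation test. With 8 mice the smallest exact p is 0.00781, which gives 0.0547 after adjustment where 1 pair alone reaches it, so leaving out a mouse could seldom keep a call. Without a mouse in turn, Jun minus Jund stayed between -0.31 and -0.25 and Maff minus Mafk between -0.47 and -0.36, and the lowest adjusted p, 0.0273, was found without mouse 4 for both, while without any other mouse both lay above 0.05.

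**Figure D4:**
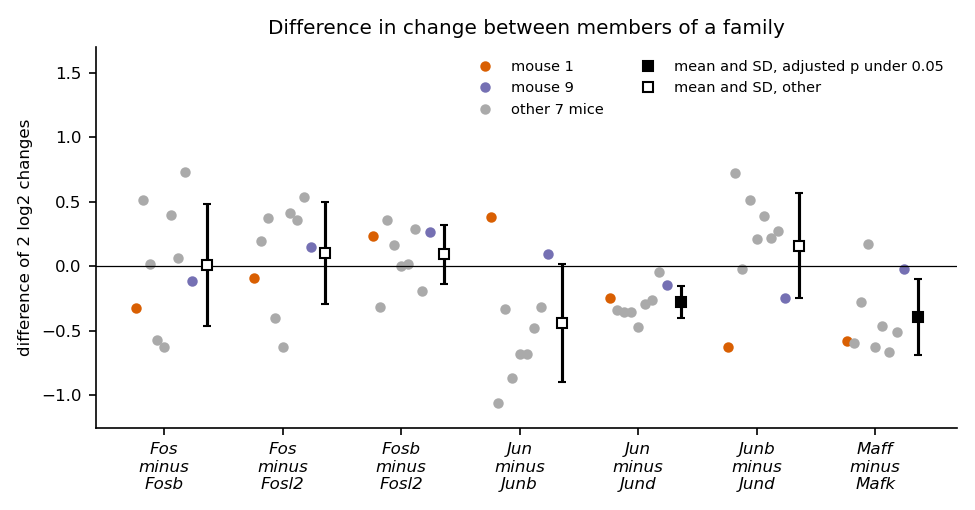
Difference between the log2 changes of 2 genes of a family (y axis) for 7 pairs (x axis), with 1 point per mouse and a square for the mean and SD of 9 mice, filled where the adjusted p of the exact test was under 0.05. All 9 points of Jun minus Jund lie below 0, from -0.47 to -0.04, and 8 of 9 points of Maff minus Mafk do.

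Other bZIP genes that can pair with FOS, JUN or small MAF proteins moved both ways, with 3 of 17 risen and 2 fallen and a median change of -0.01. Batf, an AP-1 member best known from lymphocytes, rose in 9 of 9 mice (0.30 ± 0.06, adjusted p = 0.00971). Jdp2, which encodes a JUN partner that represses AP-1 sites, rose from a median of 5.98 to 6.34 (0.31 ± 0.07, adjusted p = 0.0120), with mouse 9 alone lower. Atf3, a stress gene that the ER stress factor ATF4 turns on, rose by 0.53 ± 0.12 (adjusted p = 0.0172) in 8 of 9 mice, mouse 1 being lower by 0.17. Maf, a large MAF gene also expressed in macrophages, fell in 9 of 9 mice (-0.29 ± 0.05, adjusted p = 0.00390). Bach1, the repressor that shares small MAF partners with NRF2, fell in 9 of 9 mice (-0.18 ± 0.05, adjusted p = 0.0331), a call that was lost without any of mice 1, 2, 3, 4, 5 or 7 (adjusted p from 0.05003 to 0.0843) and after quantile normalization again (adjusted p = 0.0826). Nfe2l2, which encodes NRF2, changed by -0.01 ± 0.04 (adjusted p = 0.923), and the third small MAF gene, Mafg, by -0.08 ± 0.05 (adjusted p = 0.306).

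Of 37 other immediate-early genes, 11 rose and 1 fell, with a median change of 0.12 beside 0.01 over all genes. Myc, a growth factor-responsive transcription factor, showed the firmest rise, from a median of 7.49 (7.11 to 7.66) to 8.25 (7.49 to 8.42), higher in 9 of 9 mice (0.63 ± 0.09, 1.55-fold, adjusted p = 0.00153). Mice 1 and 9 had its smallest changes, 0.13 and 0.09, against 0.63 to 0.90 in the others. Next by p came Btg1, an antiproliferative gene (0.31 ± 0.06, adjusted p = 0.0101), Socs3, a feedback inhibitor of cytokine receptors (0.45 ± 0.10, adjusted p = 0.0132), and Nr4a3, an orphan nuclear receptor (0.49 ± 0.12, adjusted p = 0.0181). Each of these 3 was lower in the tunicamycin leg of mouse 1 and higher in that of the other 8 mice. Csrnp1, Dusp5, Egr4, Nfkbiz, Arc, Plk2 and Klf6 made up the rest of the rises. Gadd45b, a stress-response gene, fell by 0.16 ± 0.05 (adjusted p = 0.0469), and its call held without mouse 6 (adjusted p = 0.0450) and was lost without any other single mouse (adjusted p from 0.0595 to 0.109), with mice 1 and 9 both left out (adjusted p = 0.0908) and after quantile normalization again (adjusted p = 0.0777). Egr2 and Egr3, the relatives of Egr1, changed by 0.10 ± 0.05 and 0.08 ± 0.09 (adjusted p = 0.243 and 0.647), and Dusp1, Ier2 and Nr4a1, early genes as well, by 0.12 ± 0.07, 0.07 ± 0.07 and -0.01 ± 0.06 without passing.

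The kinases and ternary complex factors that act upstream of these genes had 0 rises and 3 falls among 23, with a median change of -0.07. Map2k6, a kinase of p38, fell in 9 of 9 mice, from a median of 7.49 to 7.03 (-0.46 ± 0.07, adjusted p = 0.00187). Map2k3, the other main kinase of p38, fell in 9 of 9 mice as well (-0.22 ± 0.04, adjusted p = 0.00716). Mapkapk3, a kinase that p38 activates, fell by 0.22 ± 0.05 (adjusted p = 0.0216) in 8 of 9 mice, a call lost without any of mice 2, 3, 4, 6 or 7 (adjusted p from 0.0509 to 0.0592) and after quantile normalization again (adjusted p = 0.0505). Mapk8, which encodes JNK1, changed by -0.15 ± 0.05 (adjusted p = 0.0569) and Srf, serum response factor, by -0.08 ± 0.04, and neither passed.

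**Figure D5:**
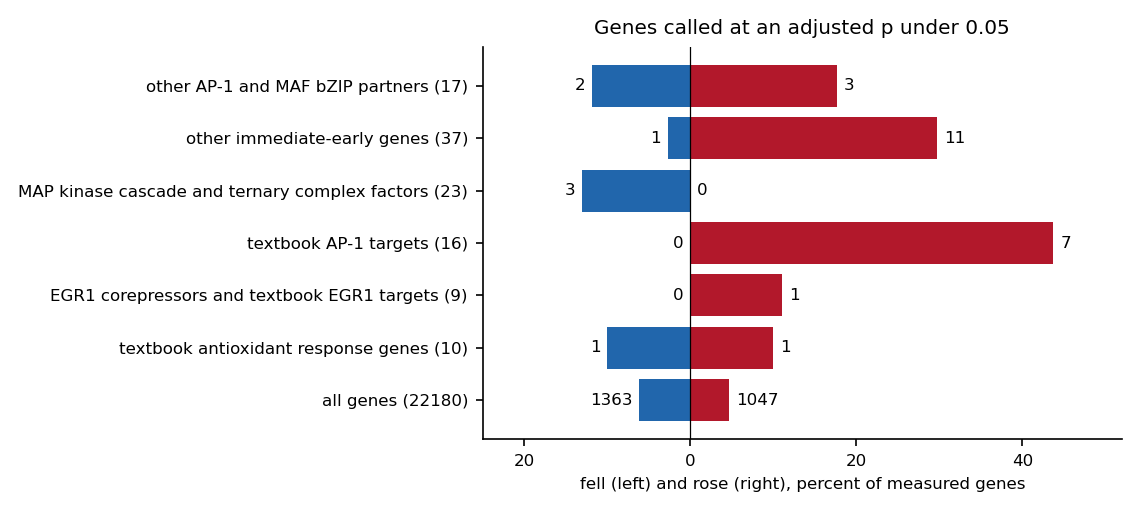
Percent of the measured genes of each list that fell (bars to the left) and rose (bars to the right) at an adjusted p under 0.05, with the number of genes at each bar and the number measured in brackets. Textbook AP-1 targets had 7 rises among 16 and the kinase list 3 falls among 23, beside 1047 rises and 1363 falls among 22180 genes.

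Among textbook AP-1 targets, 7 of 16 rose, none fell, and the median change was 0.26. Mmp3, which encodes the matrix protease stromelysin, rose in 9 of 9 mice, from a median of 4.45 to 5.34 (0.81 ± 0.10, 1.76-fold, adjusted p = 8.83e-04). Il6, the gene of a cytokine that muscle and leukocytes both make, rose from 3.13 to 3.54 at the median (0.47 ± 0.10, adjusted p = 0.0136). Its saline signals (2.91 to 3.41) lay inside the range of the Y-linked genes in these arrays (2.51 to 3.53), so they were not shown to be above background and the size of the change is uncertain. Ccl2, a chemokine that draws monocytes, rose by 1.13 ± 0.26 (2.18-fold, adjusted p = 0.0169), and Cd44, an adhesion receptor found on many leukocytes and fibroblasts, by 0.89 ± 0.21 (adjusted p = 0.0175). Both were lower in the tunicamycin legs of mice 1 and 9 and higher in those of the other 7, as the leukocyte markers were, and with the marker covariate they changed by 0.24 ± 0.22 and 0.12 ± 0.13 (adjusted p = 0.660 and 0.723). The call of Cd44 was lost without mouse 3 or mouse 4 (adjusted p = 0.0502 and 0.0509). Plaur, Timp1 and Mmp9 also rose, whereas Ccnd1, Lif and Tnc changed by 0.27 ± 0.09, 0.08 ± 0.06 and -0.15 ± 0.08 and did not pass.

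Of 9 EGR1 corepressors and targets 1 rose. It was Tgfb1, a growth factor gene, whose change of 0.35 ± 0.10 (adjusted p = 0.0462) lay between 0.20 and 0.87 in mice 1 to 8 and was -0.49 in mouse 9. Without mouse 9 it was 0.45 ± 0.07 (adjusted p = 0.00146), and without any of the other mice the call was lost (adjusted p from 0.0516 to 0.110), as it was after centring on array medians (adjusted p = 0.0634). The corepressor gene Nab2 changed by 0.12 ± 0.05 (adjusted p = 0.119) and Nab1 by 0.06 ± 0.05. Of 10 antioxidant response genes, the class on which small MAF proteins act, Slc7a11, the cystine transporter that ATF4 also controls, rose (0.64 ± 0.10, adjusted p = 0.00301, and 1.06 ± 0.21 with its brightest probeset alone, adjusted p = 0.00797), and Nqo1, a quinone reductase, fell in 9 of 9 mice (-0.24 ± 0.05, adjusted p = 0.0125). The saline signals of Slc7a11 (2.87 to 3.35) lay inside the range of the Y-linked genes, so the size of its change is uncertain. The list had a median change of 0.03, and Hmox1, a classical target of BACH1, changed by 0.27 ± 0.14 (adjusted p = 0.247).

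The genes whose 9 within-mouse changes were closest to those of the 2 called genes were found by the root mean square difference over the 9 mice. For Fosb they were Cd160, an immune receptor gene (0.064), Tmbim6, which encodes BAX inhibitor 1 of the ER membrane (0.068), and Khsrp, an RNA-binding protein gene (0.075). For Mafk they were Cope, a coatomer subunit gene (0.11), Xbp1, the ER stress factor that IRE1 splices (0.11), and Shc1, a receptor adaptor gene (0.12). Cd160 (limma adjusted p = 0.0921) and Cope (limma adjusted p = 0.0522) did not pass the test themselves, whereas Tmbim6, Khsrp, Xbp1 and Shc1 rose. Likeness over 9 mice is a description, and these genes were searched for among all genes.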

How the data were processed

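The authors deposited log2 signals, 1 per probeset and array, computed in Partek by RMA, which corrects the background, equalises quantiles and combines probes by median polish. No genome build or detection call was used, array signals compress large changes, and precision is limited by having 18 arrays. Of 41345 probesets, 23521 carried 1 gene symbol in the platform annotation, and these were averaged to 22180 genes. All 18 arrays entered a two-sided limma fit (lmFit, then eBayes; limma 3.58.1, R 4.3.3) with mouse as a block, and p-values were adjusted over all genes. The step was tested on simulated data, but detection was required there only for changes larger than those of the 9 genes. Both injections were given in 1 animal per the labels, which is the source of the pairing. Deviations of the 2 legs of a mouse from their group means correlated at a median r of 0.12, and at -0.028 in mouse 1 and -0.039 in mouse 9. The labels pair the legs of these 2 mice as well. Xist was low in both legs of mouse 9 alone (4.79 and 4.90, against 9.22 to 9.52 elsewhere). Jun was lower in both legs of mouse 1 (8.95 and 8.87) than in any other leg.

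The genes, the gene lists, the marker lists and the alternatives were chosen with earlier results of these data known. Lists are described by counts and medians, without a test of the list. The genes named are the members, up to 4 called genes of each pathway list by p in its main direction and up to 2 in the other, and the 3 closest genes of each called member. Other list genes were added after their values were seen. Of 10 planned pairs of family members 7 could be formed, as Fosl1 shares its probeset. Promoters are those of RefSeq, build GRCm38.p6, and 8 of the 10 genes were matched to one that is used here. Egr1 and Fosl1 had no promoter in the search. A filter that dropped the promoters on 1 chromosome was applied to those of the 10 genes and not to the count over all promoters. None of the 8 genes searched lies on that chromosome, so the filter may have removed Egr1 or Fosl1. Their absence from the search therefore does not show that they lack a promoter record. Alternatives were a fit with no block, a second quantile normalization, arrays centred on their medians, only the brightest probeset of a gene, only genes above the median level, weights per array, a prior that is trended and robust, a covariate of leukocyte markers, each mouse left out, and mice 1 and 9 left out. The main fit was also run over all probesets, before any averaging per gene.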

Additional observations from a re-analysis of the deposited data

Results flagged for a closer look

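Among 47 sets of 9 values (the saline signals, tunicamycin signals and changes of the 9 genes, and the changes of the pathway genes named by p), 4 had a lowest or highest value that stood far from the rest by Dixon's criterion, where chance alone would give about 1 in 20, or 2.4. Jun stood low in both legs of mouse 1, at 8.95 in the saline leg, where the other saline legs had 9.48 to 9.70, and at 8.87 in the tunicamycin leg, where the others had 9.26 to 9.66. The within-mouse change of Jun in that mouse was -0.08, inside the range of the others. Fos stood high in the saline leg of mouse 4, at 7.48 against 5.45 to 6.45 in the other saline legs. Tgfb1 had a change of -0.49 in mouse 9, against 0.20 to 0.87 in the other mice.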

How the results depend on the processing

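With 9 mice, several results lay close to the threshold. Without the replicate block, none of the 9 genes was called (Fosb 0.16, adjusted p = 0.0933, and Mafk 0.22, adjusted p = 0.110, 0 risen), and Maf, Nr4a3, Gadd45b, Mapkapk3 and Nqo1 lost their calls. With the trended and robust prior Ccl2 and Cd44 lost theirs. Centring on array medians left 1 risen, Fosb, and Mafk (0.20) lost its call. Quantile normalization again (0.14) and the brightest probeset (0.14) brought Jund past the threshold, and so did the filter on dim genes (0.12) and the trended and robust prior (0.12). These last 2 settings also called Jun (-0.15 in both, 1 fallen). Array weights gave 4 risen and 1 fallen (Jun -0.17, Junb 0.31, Egr1 0.46). Without mice 1 and 9 there were likewise 4 risen and 1 fallen (Jun -0.20, Junb 0.43, Egr1 0.61), and the pairs Jun minus Jund (-0.30) and Maff minus Mafk (-0.42) had an adjusted p of 0.0547 in the exact permutation test. With the leukocyte markers as a covariate, 0 of the 9 genes rose (Fosb 0.17, Mafk 0.15), Egr1 (-0.10) and Fosl2 (-0.013) turned to the other side of 0, 25 genes rose and 6 fell of all, and none of the 20 pathway genes named by p kept its call. Of these, 13 shrank by over 1.5 times, for example Tgfb1 (0.35 to 0.04), Myc (0.63 to 0.34) and Atf3 (0.53 to 0.25), and 7 did not, for example Batf (0.30 to 0.38), Maf (-0.29 to -0.31) and Gadd45b (-0.16 to -0.18). Leaving out 1 mouse at a time gave 0 to 4 risen and 0 to 1 fallen members, 563 to 1338 risen and 741 to 1474 fallen genes of all, and changes of 0.08 to 0.26 for Fos, 0.03 to 0.10 for Fosl2, 0.15 to 0.18 for Fosb, -0.19 to -0.14 for Jun, 0.22 to 0.38 for Junb, 0.32 to 0.48 for Egr1 and 0.20 to 0.27 for Mafk. The pair values ran from -0.31 to -0.25 for Jun minus Jund, from -0.47 to -0.36 for Maff minus Mafk and from -0.080 to 0.090 for Fos minus Fosb, which lay below 0 without mouse 2 (-0.05), 6 (-0.04) or 8 (-0.080). The cause of these shifts was not tested.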
